A study of Mus musculus with 6 samples.

Results

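The nuclei described here are glutamatergic neurons with a high level of Hs3st4, the gene of an enzyme that adds a sulfate group to heparan sulfate chains. They were selected on measured values: a nucleus was taken where Slc17a7 was at least 2, Hs3st4 at least 5, Gad1 plus Gad2 at most 1, Rgs9 plus Pde10a at most 7 and Mog plus Mag at most 1. Slc17a7 encodes a vesicular glutamate transporter, the Gad genes make GABA, Rgs9 and Pde10a mark medium spiny neurons of the striatum, and Mog and Mag mark oligodendrocytes. The rule kept 1029 of 48834 nuclei (2.11%). The 8 genes of the rule are therefore given as a description, without a test.

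The study profiled single nuclei from frozen, dissected mouse striatum in 6 libraries, 3 from wild-type mice and 3 from mice heterozygous for Celsr3. Each library is labelled as a biological replicate, and the labels used here name no sex, age, strain, Celsr3 allele or litter. Values are depth-corrected transcript counts per nucleus, rounded to whole numbers, so the original depth of a nucleus is unknown. Levels below are means per nucleus in a library, on a linear scale unless log2 is named.

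The deep layers of the cerebral cortex hold glutamatergic neurons that project within the cortex, locally or to other brain regions. Corticothalamic neurons of layer 6 project to the thalamus and express Tle4, Foxp2 and Syt6, while layer 6b is a thin band at the border with the white matter that derives in part from the embryonic subplate and expresses Ccn2, Cplx3 and Moxd1. The claustrum, a sheet of glutamatergic neurons beside the striatum, expresses Nr4a2, Oprk1 and Gnb4. The striatum itself is made up mainly of GABAergic neurons and receives glutamatergic axons from the cortex.

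The wild-type libraries held 183, 39 and 188 of the selected nuclei in replicates 1, 2 and 3, and the heterozygous libraries held 368, 61 and 190. Wild-type replicate 2 and heterozygous replicate 2 thus gave few nuclei, and their means are the least precise. The median number of genes detected per selected nucleus lay between 3478.5 and 3707 in the 6 libraries, and the median total value between 7373.5 and 7520. Of all barcodes, 274 occurred in more than 1 library, and 0 were carried by more than 1 selected nucleus. Whether a selected nucleus shared its barcode with an unselected nucleus was not tested. No doublet caller was run. The limits of the rule left out nuclei with clear GABAergic, medium spiny or oligodendrocyte signal, but set no limit on astrocyte, microglial or vascular genes.

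The median Hs3st4 value of the selected nuclei was 15 and the highest 49, and by library the median ran from 11 in wild-type replicate 2 to 19 in heterozygous replicate 3. Just outside the threshold, 89 nuclei that met every other limit had an Hs3st4 value of 4, with mean levels of 0.775 for Tle4, 0.775 for Zfpm2 and 0.404 for Foxp2. Just inside it, 65 nuclei had a value of 5, with mean levels of 0.8 for Tle4, 1.22 for Zfpm2 and 0.508 for Foxp2. All 3 genes were well below their means over all selected nuclei on both sides.

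The label of these nuclei as a deep-layer type with Tle4 fitted only some of them. Tle4, a transcriptional co-repressor, averaged 2.79 per selected nucleus, but 337 nuclei (32.7%) had a Tle4 value of 0. When the nuclei were clustered on variable genes other than those of the rule, 8 sub-clusters appeared. Tle4 averaged over 1 in 4 of them, which held 588 nuclei, and under 1 in the other 4, which held 441 nuclei (42.9%). The nuclei are therefore called Hs3st4-high glutamatergic nuclei below. Genes that set the sub-clusters apart were used to form them and are given as a description.

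Sub-cluster 1, with 424 nuclei (41.2%), was L6 corticothalamic-like. It was led by Foxp2, a forkhead transcription factor, at 6.59 against 0.635 in the other Hs3st4-high nuclei, Syt6, a synaptotagmin, at 1.02 against 0.0793, and Cpa6, a carboxypeptidase, at 1.20 against 0.132. Zfpm2, a zinc finger cofactor of GATA proteins, stood at 12.8 against 2.73. Of the 12 corticothalamic markers, 8 were more than 2-fold above the other Hs3st4-high nuclei. Tle4 averaged 4.23 in this sub-cluster.

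Sub-cluster 3, with 123 nuclei, was layer 6b-like. All 7 measured layer 6b markers were more than 2-fold above the other Hs3st4-high nuclei, with Ccn2, a secreted matrix protein, at 2.97 against 0.0684, Svil, an actin-binding protein, at 3.59 against 0.0894, and Moxd1, a monooxygenase-like protein, at 1.29 against 0.0221. This sub-cluster had the highest mean Hs3st4 (23.1) and the highest mean Tle4 (5.91) of the 8. Sub-cluster 7, with 25 nuclei, was near-projecting-like: all 7 near-projecting markers stood out, with the zinc finger gene Tshz2 at 34.3 against 1.73 and Vwc2l at 9.56 against 0.617. Its mean Tle4 was 5.20.

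Sub-cluster 6, with 72 nuclei, was claustrum-like. All 8 claustrum markers stood out, with the nuclear receptor Nr4a2 at 4.62 against 0.180, the kappa opioid receptor Oprk1 at 2.61 against 0.0345 and the adhesion gene Ntng2 at 8.32 against 0.172. Tle4 averaged 0.35 there, and Hs3st4 averaged 9.17. These nuclei met the rule although the claustrum is not a deep cortical layer.

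3 further sub-clusters of neurons stayed unnamed, 369 nuclei (35.9%) in all. Sub-cluster 2 (148 nuclei) was led by Ntng1, a netrin-related adhesion gene, at 39.0 against 1.12, Thsd7a at 13.1 against 0.734 and Reln, the secreted protein reelin, at 4.72 against 0.243. Its Tle4 mean was 0.35 and its Foxp2 mean 0.04, while Hs3st4 averaged 15.9. Sub-cluster 4 (117 nuclei) was led by Cntnap5c at 5.74 against 0.423, Unc13c at 7.68 against 0.644 and Cntnap5a at 14.6 against 1.51. Sub-cluster 5 (104 nuclei) was led by 4930467D21Rik, Npsr1, Pld5, Gm20752 and Rorb, the last at 9.02 against 0.948. In sub-cluster 5, 7 of 11 intratelencephalic markers stood out together with 3 of 6 subcortical and amygdalar markers, among them Sim1.

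Sub-cluster 8, with 16 nuclei, was led by astrocyte genes. Gpc5 stood at 14.2 against 0.326 and the glutamate transporter Slc1a3 at 3.00 against 0.134, and all 8 astrocyte markers stood out. The same nuclei carried Zfpm2 at 12.2, close to the 12.8 of the corticothalamic-like sub-cluster, and Foxp2 at 3.38, below its 6.59. It stayed unnamed.

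**Figure D1:**
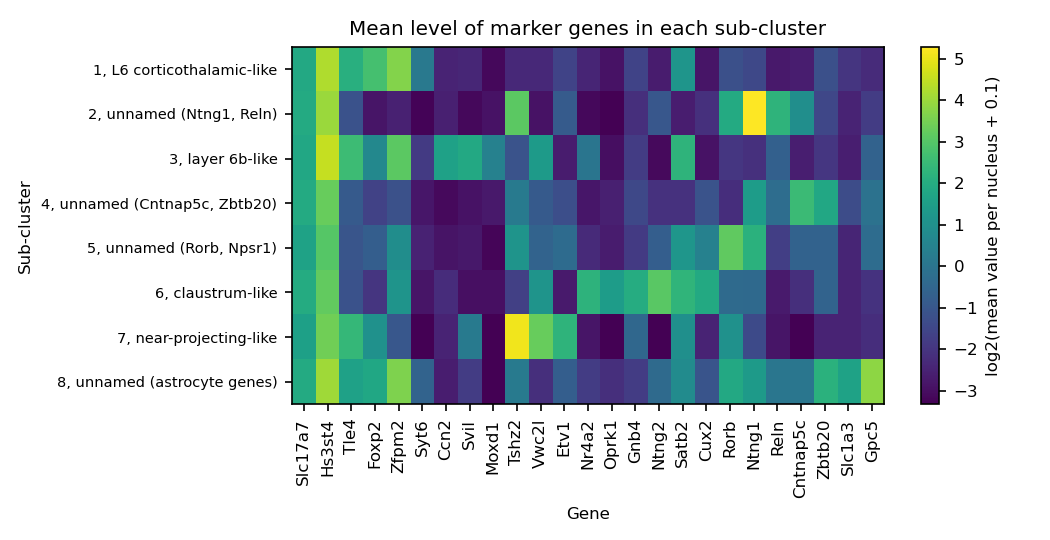
Mean level of 25 genes (columns) in each of the 8 sub-clusters (rows) of the Hs3st4-high nuclei, coloured by log2(mean value per nucleus + 0.1). Hs3st4 and Slc17a7 are high in every row because the rule required them, while Tle4 is high in sub-clusters 1, 3, 7 and 8, where it averages over 1.

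The mix of sub-clusters differed widely between libraries of the same genotype. The corticothalamic-like sub-cluster made up 60.1%, 15.4% and 28.2% of the Hs3st4-high nuclei in wild-type libraries, compared with 33.2%, 27.9% and 61.1% in heterozygous libraries. Wild-type replicate 1 and heterozygous replicate 3 were thus the libraries with the highest shares. The layer 6b-like share was 10.9%, 15.4% and 9.04% in wild-type and 6.79%, 29.5% and 19.5% in heterozygous libraries. Of the 148 nuclei of the Ntng1 and Reln sub-cluster, 131 came from wild-type replicate 3 and heterozygous replicate 1, and 0 from heterozygous replicate 3. The claustrum-like share was highest in wild-type replicate 2, at 23.1%. For none of the 8 sub-clusters was the genotype difference in share beyond the spread between libraries (two-sided exact permutation p from 0.2 to 1; the smallest p that 3 against 3 libraries can give is 0.1). A mean over all Hs3st4-high nuclei of a library is therefore also a mean over a different mix of neurons in each library. The part of this mix in the genotype comparisons below was not tested, and values within a sub-cluster are given for some genes.

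**Figure D2:**
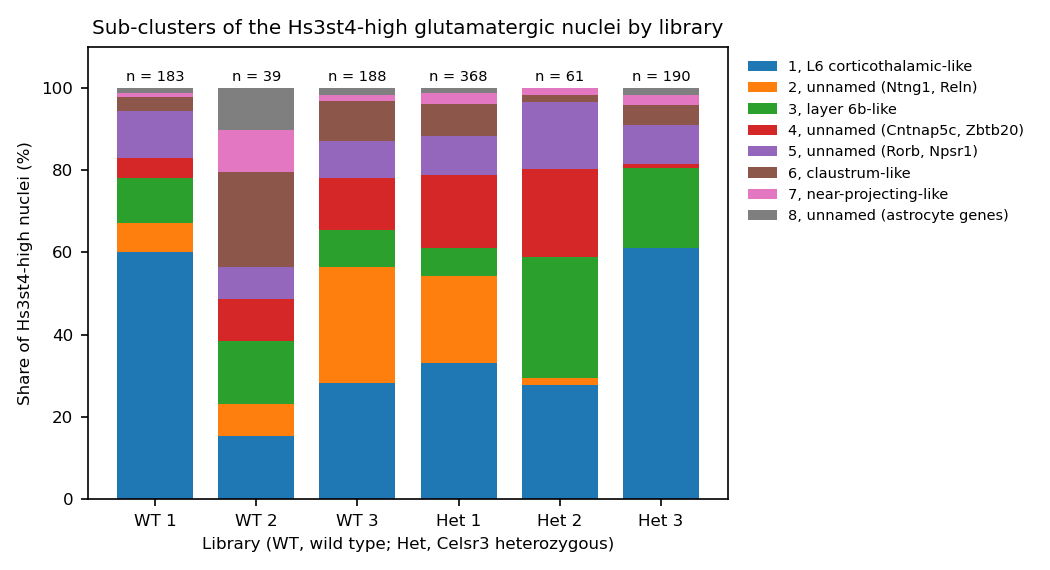
Share (%) of each sub-cluster among the Hs3st4-high nuclei of each library, as stacked bars with the number of nuclei above. The blue corticothalamic-like share runs from 15.4% in wild-type replicate 2 to 61.1% in heterozygous replicate 3.

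Hs3st4-high nuclei made up a small and variable share of all nuclei. The share was 2.37%, 0.494% and 2.33% in wild-type libraries, compared with 4.66%, 0.729% and 2.14% in heterozygous libraries. The means were 1.73% ± 1.07 and 2.51% ± 1.99 (SD, n = 3 each), and the groups overlapped (two-sided exact permutation p = 0.6). Without heterozygous replicate 1 the difference turned from 0.783 to -0.294 percentage points.

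Among glutamatergic nuclei, taken by the same limits at any Hs3st4 value (2707 nuclei), the Hs3st4-high share was 35.7%, 26.7% and 32.6% in wild-type libraries and 39.1%, 40.4% and 50.0% in heterozygous libraries. Each heterozygous library was above each wild-type library, with means of 31.7% ± 4.58 and 43.2% ± 5.95 (SD, n = 3 each; two-sided exact permutation p = 0.1, the smallest that this design can give). The denominator, however, held nuclei with glial signal. When nuclei were kept only where 3 sets of 4 genes each, for astrocytes (among them Slc1a3, Gja1 and Aqp4), microglia (among them Csf1r, Cx3cr1 and C1qa) and vessels (Flt1, Cldn5, Pecam1 and Vtn), summed to at most 1 per set, the shares were 47.4%, 43.4% and 40.4% against 45.9%, 45.9% and 56.5%. The groups then overlapped, with means of 43.7% ± 3.51 and 49.4% ± 6.12 (SD, n = 3 each; two-sided exact permutation p = 0.3). This limit, called glia-limited below, was added after the glial signal had been seen.

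**Figure D3:**
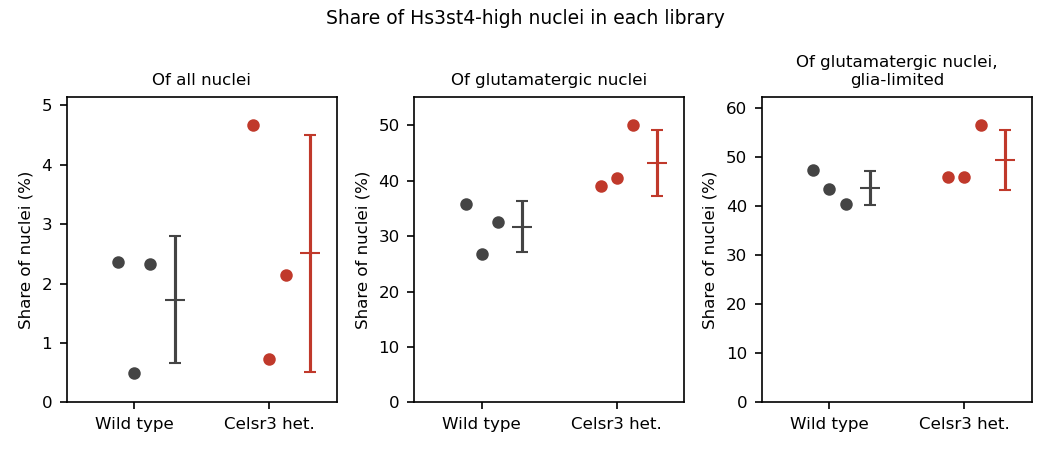
Share (%) of Hs3st4-high nuclei in each library among all nuclei, among glutamatergic nuclei and among glia-limited glutamatergic nuclei; points are libraries, dashes with bars are the mean and SD of 3. The genotypes are apart only in the middle panel, where wild-type libraries reach 35.7% and heterozygous libraries start at 39.1%.

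The first comparison asked how heterozygous loss of Celsr3 changed the genes of these nuclei. Celsr3 encodes a large cadherin with 7 membrane-spanning segments that acts in planar cell polarity and in the guidance of axon tracts; it lies on chromosome 9 at 108826320 to 108852969 (GRCm38). Its level in Hs3st4-high nuclei was 0.148, 0.179 and 0.255 in wild-type libraries, compared with 0.130, 0.0984 and 0.110 in heterozygous libraries. Each heterozygous library was below each wild-type library, with a mean at 58.3% of that of wild type. The log2 difference was -0.70 ± 0.27 (SE; limma adjusted p = 0.993), so Celsr3 did not pass the test across all genes. In the corticothalamic-like sub-cluster alone, without wild-type replicate 2 and its 6 nuclei, the log2 difference was -1.64 (limma adjusted p = 0.993), and Celsr3 was at 0 in the 17 nuclei of heterozygous replicate 2. Across sub-clusters the Celsr3 mean over all libraries ran from 0.11 in sub-cluster 1 to 0.21 in the layer 6b-like one.

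Across all 12307 genes tested in Hs3st4-high nuclei, limma called 0 between the genotypes (0.0%), while 395 had an unadjusted p under 0.05, 184 higher and 211 lower in heterozygous libraries. No other tool was run, since the values are not raw counts. With no overlap between the groups, 681 genes (5.53%) had higher and 435 (3.53%) lower levels in heterozygous libraries.

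Mid1, on the X chromosome at 169685199 to 170005736 (GRCm38), had the smallest p of all genes. It encodes a ubiquitin ligase that binds microtubules. Its level was 0.0820, 0.0769 and 0.0479 in wild-type libraries, compared with 0.350, 0.361 and 0.263 in heterozygous libraries, with no overlap and a log2 difference of 2.10 ± 0.27 (SE; limma adjusted p = 0.279). Within the corticothalamic-like sub-cluster the levels were 0.0818 and 0.0377 in replicates 1 and 3 of wild type, and 0.344, 0.353 and 0.233 for heterozygous ones. These levels did not overlap within this sub-cluster either, with a log2 difference of 2.25 (limma adjusted p = 0.993, without wild-type replicate 2). Mid1 was picked by its p in a comparison that includes these same nuclei, so this is a description. The size of the difference depended on which nuclei were kept and on the pseudocount: it was 1.00 with Rgs9 plus Pde10a at most 2, 1.45 with Hs3st4 at least 3, 1.33 with a pseudocount of 0.1 and 3.25 without sub-cluster 8 (limma adjusted p = 0.979, 0.977, 0.195 and 0.982). With Rgs9 plus Pde10a at most 2, few nuclei were left. They averaged 0.511% of all nuclei in wild-type and 0.676% in heterozygous libraries, beside 1.73% and 2.51% under the main rule. In replicate 2 of wild type and of heterozygous they made up 0.152% and 0.263%.

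The other genes with the smallest p values had adjusted p values of 0.993 in limma, and none passed. Higher values in heterozygous libraries were found for Stxbp6, a regulator of the vesicle fusion machinery, with levels of 0.0765, 0.0513 and 0.0479 against 0.171, 0.230 and 0.221. Its log2 difference of 1.68 was 0.09 in the corticothalamic-like sub-cluster alone (without wild-type replicate 2), where its level was 0 in heterozygous replicate 2. Gnal, a G-protein alpha subunit that couples dopamine receptors to adenylyl cyclase in the striatum, stood at 0.503, 0.538 and 0.324 against 0.834, 1.03 and 0.668. Pcbp3, an RNA-binding protein, and Tent4b, a poly(A) polymerase, had log2 differences of 0.67 ± 0.16 and 0.65 ± 0.17 (SE). Lower values were found for Gss, glutathione synthetase, with levels of 0.290, 0.282 and 0.330 against 0.174, 0.164 and 0.158. The predicted or noncoding genes Gm48747, Gm47134, 4933424G05Rik and Gm21954 had log2 differences between -0.88 and -0.74. With Rgs9 plus Pde10a at most 2, several of these values moved by over 1.5 times: Gm47134 to -2.08, Gm48747 to -0.22, 4933424G05Rik to -0.51, Gm21954 to -0.37, Stxbp6 to 2.87, Pcbp3 to 0.26 and Tent4b to 1.03, with the direction kept. These values rest on the few nuclei that this limit left. With sub-clusters weighted equally, Tent4b was at 0.36, and with a pseudocount of 0.1, Stxbp6 was at 0.95. For each of these 9 genes the 3 heterozygous libraries lay on 1 side of all wild-type libraries. The genes were chosen by the smallest p values of this same comparison, so the lack of overlap is a description. Over all 12307 genes tested, 681 lay above and 435 below wild type without overlap.

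**Figure D4:**
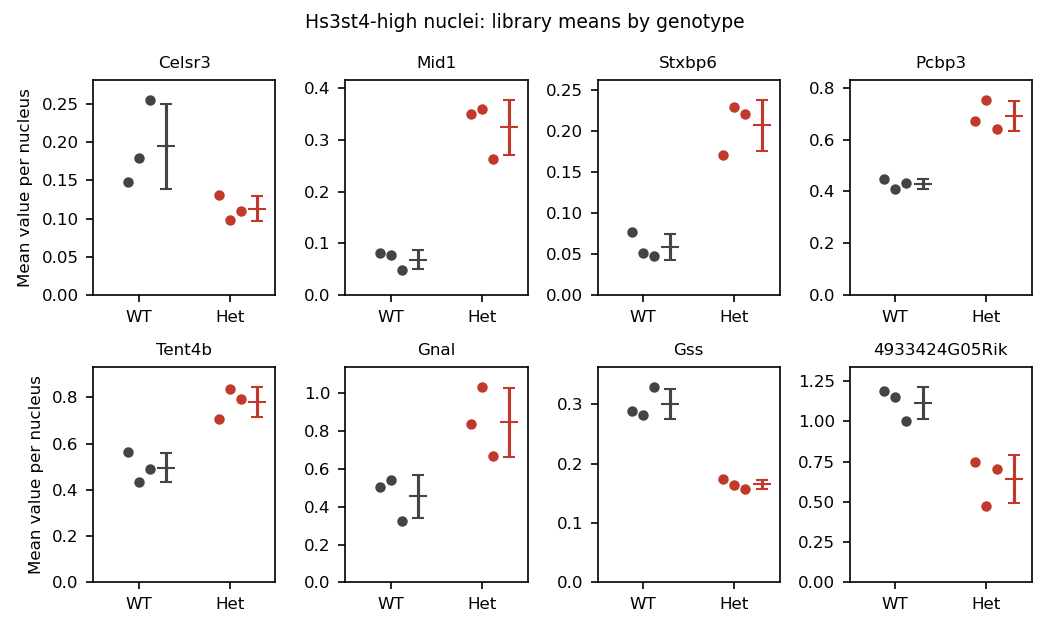
Mean value per nucleus of 8 genes in the Hs3st4-high nuclei; points are libraries (WT, wild type; Het, Celsr3 heterozygous), dashes with bars are the mean and SD of 3 libraries. In each panel the genotypes do not overlap, but no gene passed the test across all genes (limma adjusted p of 0.279 for Mid1 and 0.993 for the others). The genes other than Celsr3 were chosen by the smallest p values of this same comparison.

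Genes that had been named for genotype differences in earlier work on these same libraries were also apart here, which is not independent evidence. Of the 9 that could be tested here, 8 lay below and 1, Mid1, above wild type without overlap, beside 3.53% below and 5.53% above over all genes. Rpl29, a ribosomal protein gene on chromosome 9, stood at 0.377, 0.308 and 0.229 against 0.144, 0.180 and 0.174. Aste1, on the same chromosome, stood at 0.355, 0.359 and 0.372 against 0.196, 0.279 and 0.258. Neither passed (limma adjusted p = 0.993 for both).

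No gene of any list was called by genotype in these nuclei. Of the planar cell polarity genes, 12 were tested and 0 called by limma, with 2 lower and 0 higher at an unadjusted p under 0.05 and a median log2 difference of -0.01, beside 0.04 over all genes. Of 51 axon guidance genes, 0 were called and 0 had an unadjusted p under 0.05 in limma, with a median of -0.19. Of 11 corticothalamic markers, 0 were called and 0 had an unadjusted p under 0.05 in limma, with a median of 0.06. Of 7 layer 6b markers, 0 were called in limma and 0 had an unadjusted p under 0.05, with a median of 0.50, and all 7 were positive; the layer 6b-like share of nuclei was also higher in the mean in heterozygous libraries (18.6% ± 11.4 against 11.8% ± 3.26, SD, n = 3 each), and its part in this was not tested. Other marker lists of deep or neighbouring neurons were as one-sided in the other direction: of 7 claustrum markers, 0 were called in limma, 0 had an unadjusted p under 0.05 and 0 were positive, with a median of -0.60. Of 4 near-projecting markers, 0 were called in limma, 1 was lower at an unadjusted p under 0.05 and 0 were positive, with a median of -0.53.

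Markers of other cell types were present in both genotypes. The summed level of 8 astrocyte markers was 5.56 to 10.2 in wild-type and 5.81 to 8.51 in heterozygous libraries. That of 12 medium spiny neuron markers was 1.91 to 2.44 and 2.00 to 2.40. That of 6 microglial markers was 0.872 to 1.20 and 0.779 to 0.913, and that of 8 oligodendrocyte markers was 3.46 to 4.70 and 2.07 to 6.44. No list was at 0 in any library, and the ranges of the genotypes overlapped for these 4 lists. The astrocyte sum rested largely on Slc1a2, at 5.99 over all Hs3st4-high nuclei and 10.4 in the layer 6b-like sub-cluster. Slc1a3 averaged 0.179 and Aqp4 0.0836 over all Hs3st4-high nuclei, so the sum is mainly a level of Slc1a2.

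The second comparison set Hs3st4-high nuclei beside Hs3st4-low ones of the same libraries, chosen by the same limits with Hs3st4 at most 1 (1359 nuclei), with the library as a block and the 8 rule genes left out of the test. Most tested corticothalamic and layer 6b markers were higher in Hs3st4-high nuclei, while the heparan sulfate, axon guidance, glutamate receptor and potassium channel lists held members that were higher and members that were lower. In limma, 1858 of 12446 genes were higher (14.9%) and 1248 lower (10.0%) in Hs3st4-high nuclei at an adjusted p under 0.05. Genes other than those of the rule vary together with them from nucleus to nucleus, so these counts describe how far the rule separates the nuclei. A gene was tested where its mean over both kinds of nuclei was at least 0.05, and 68 of the higher genes were under 0.05 in Hs3st4-low and 263 of the lower ones in Hs3st4-high nuclei. Such genes entered the test only through the nuclei where they were high, so their calls are a description.

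Hs3st4-low nuclei also held more glial signal. Summed over 8 markers, astrocyte genes stood at 17.5 to 46.1 in Hs3st4-low nuclei by library, against 5.56 to 10.2 in Hs3st4-high nuclei, and 6 microglial markers at 3.29 to 8.35 against 0.779 to 1.20. The 46.1 and 8.35 were those of wild-type replicate 2, and astrocyte sums of the other libraries reached 23.3. Hs3st4-low nuclei of wild-type replicate 2 had a median of 2103 genes detected, against 3429 to 3501 in the other libraries. The genes with the largest log2 differences on the lower side included Runx1 (-4.46), Mertk (-4.38), Fli1, Arhgap45, Dock8, Ikzf1, Adap2, Gm2629, Apbb1ip, Slc1a3 (-3.87) and Gm10790, several of which are genes of microglia or astrocytes. The part of this signal in the lower calls was not tested. Across the alternatives run, the smallest differences were -1.90 for Runx1, -1.78 for Arhgap45, -1.87 for Ikzf1 and -1.52 for Gm2629. They were -3.08 for Mertk and -3.38 for Slc1a3. The differences of the listed genes are given as a description, since a gene under 0.05 in Hs3st4-high nuclei entered the test only through Hs3st4-low nuclei. The comparison was repeated on glia-limited nuclei of both kinds, 841 Hs3st4-high and 761 Hs3st4-low, where the 12 glial and vascular genes of that limit were left out too. In these, 406 of 12497 genes were higher (3.25%) and 496 lower (3.97%). Here 28 of the higher genes were under 0.05 in Hs3st4-low and 41 of the lower ones in Hs3st4-high nuclei, so their calls are a description. None of the genes listed from Runx1 to Gm10790 was among the genes tested in this repeat. Both the number of nuclei and the genes tested thus changed with this limit. Of the astrocyte markers, Slc1a2 was called lower in Hs3st4-high nuclei without this limit and higher with it.

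The scaling of the libraries also moved the split. With median-ratio size factors in place of the deposited scale, the median log2 difference over all genes moved from 0.14 to 0.01, a shift of 0.13, and 1071 genes were higher and 1576 lower in limma. The share of higher genes among those called went from 59.8% to 40.5%, and was 45.0% in the glia-limited fit. A log2 difference below about that shift has no direction that holds on both scales. In all 3 fits together, 326 genes were called higher and 256 lower, and the gene groups below are led by members of these.

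Of 12 corticothalamic markers 11 were tested, and 10 were higher and 0 lower, beside 14.9% and 10.0% of all genes; 2 of the 10, Col5a1 and Kit, were under 0.05 in Hs3st4-low nuclei. In all 3 fits 7 were higher, beside 326 of all 12446 genes, and the median log2 difference was 1.84 beside 0.14. Of the 7, Syt6 and Col5a1 were under 0.05 in glia-limited Hs3st4-low nuclei, so their calls there are a description. Foxp2, on chromosome 6 at 14901349 to 15441977 (GRCm38), stood at 3.92, 1.56 and 2.13 in wild-type and 2.41, 2.59 and 5.02 in heterozygous libraries. In Hs3st4-low nuclei it stood at 0.49, 0.17 and 0.26 and at 0.33, 0.47 and 0.34. Every Hs3st4-high library was thus above every Hs3st4-low one, with a log2 difference of 3.02 ± 0.15 (SE; limma adjusted p = 2.09e-07). When both were glia-limited, the ranges were 1.58 to 5.01 and 0.09 to 0.43 and the log2 difference was 4.12 ± 0.22.

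Tle4 stood at 3.40, 2.51 and 1.96 in wild-type and 2.06, 3.30 and 4.32 in heterozygous libraries. In Hs3st4-low nuclei it ran from 0.61 to 1.23, and the log2 difference was 1.83 ± 0.18 (SE; limma adjusted p = 2.1e-05). When both were glia-limited, the ranges were 1.85 to 4.16 and 0.21 to 0.36 and the log2 difference was 3.37 ± 0.18. The Tle4 level was highest in wild-type replicate 1 and heterozygous replicate 3 of their groups, the libraries with the highest corticothalamic-like shares. Zfpm2 averaged 7.17 ± 2.09 against 1.05, and Syt6 0.465 ± 0.200 against 0.0680 (SD, n = 6 libraries).

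Of 7 layer 6b markers 6 were tested, and 5 were higher and 0 lower in all 3 fits, beside 326 and 256 of all 12446 genes, with a median log2 difference of 1.85. Of the 5, Moxd1 and Cplx3 were under 0.05 in Hs3st4-low nuclei, and Moxd1, Cplx3 and Svil in glia-limited Hs3st4-low nuclei. Their calls in those fits are a description. Moxd1 averaged 0.252 ± 0.201 against 0.00596 (SD over 6 libraries), given as a description. Ccn2 averaged 0.584 ± 0.380 against 0.0605, with a log2 difference of 2.87 ± 0.31 (SE; limma adjusted p = 4.76e-05). Both varied widely between libraries and were highest in heterozygous replicate 2, where 29.5% of the nuclei were layer 6b-like. Of 7 near-projecting markers 4 were tested, and 2 of these, Tshz2 and Vwc2l, were higher and 0 lower in all 3 fits; Trhr, Slc17a8 and Sla2 did not reach the filter on low values.

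The largest differences by the naming rule also included genes outside these marker lists. Gm10635, a predicted gene under 0.05 in Hs3st4-low nuclei, averaged 0.684 ± 0.708 against 0.00986, and its mean rested largely on heterozygous replicate 2, at 2.12 against 0.296 to 0.590 in the other libraries. Trabd2b, which encodes an inhibitor of Wnt signalling, averaged 0.892 ± 0.297 against 0.0852, and Cpa6 0.648 ± 0.215 against 0.0680 (SD over 6 libraries). Cdh18, a classical cadherin, was the most abundant of them, at 17.2 ± 6.50 against 2.57, with a log2 difference of 2.75 ± 0.18 (SE; limma adjusted p = 1.35e-06). The collagen gene Col12a1 had a log2 difference of 2.56 ± 0.17 (SE), and Col5a1, another collagen gene and one of the corticothalamic markers, 3.37 ± 0.39. All were higher in 6 of 6 libraries, also when glia-limited. For Gm10635 and Col5a1, under 0.05 in Hs3st4-low nuclei with and without this limit, the calls and this count are a description. The log2 size of low genes depended on the pseudocount: with 0.1 it was 1.68 for Col12a1, 1.49 for Col5a1, 2.52 in place of 4.91 for Gm10635, 1.55 in place of 3.74 for Moxd1, 1.76 in place of 3.09 for Syt6 and 1.91 in place of 2.87 for Ccn2.

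On the lower side, the genes named are those with the largest differences in the glia-limited comparison. C1ql3, a secreted protein of the synapse, averaged 0.285 ± 0.110 in glia-limited Hs3st4-high nuclei against 2.16 ± 0.538 (SD over 6 libraries), a log2 difference of -2.93 ± 0.17 (SE; limma adjusted p = 7.39e-06). Slc26a4, an anion exchanger, and Ccbe1, a secreted protein, had log2 differences of -3.90 ± 0.37 and -3.02 ± 0.22 (SE). Arsj, Palmd, Lama2, Stard8, Gm44079, Cdh7, Adamts2, Dact2 and Gpc4 had glia-limited log2 differences between -2.99 and -2.42. Slc26a4, Arsj, Lama2 and Gm44079 were under 0.05 in the glia-limited Hs3st4-high nuclei and are given as a description. Within the Hs3st4-high nuclei, Lama2 was concentrated in sub-cluster 8, led by astrocyte genes, at 1.38 against 0.0316 in the others. Of 10 intratelencephalic markers tested, 1 was higher (Deptor) and 3 lower (Otof, Calb1 and Rasgrf2) in all 3 fits, beside 326 and 256 of all 12446 genes. Otof was under 0.05 in the glia-limited Hs3st4-high nuclei, so its call there is a description. Of 8 general cortical markers, 3 were higher and 3 lower in all nuclei, beside 14.9% and 10.0% of all genes. In all 3 fits 0 were higher and 2 lower, beside 326 and 256 of all 12446 genes. Cck, the cholecystokinin precursor, and Camk2a, a calcium-dependent kinase, were the latter, with log2 differences of -1.14 ± 0.13 and -0.38 ± 0.09 (SE). Both were lower in 6 of 6 libraries.

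**Figure D5:**
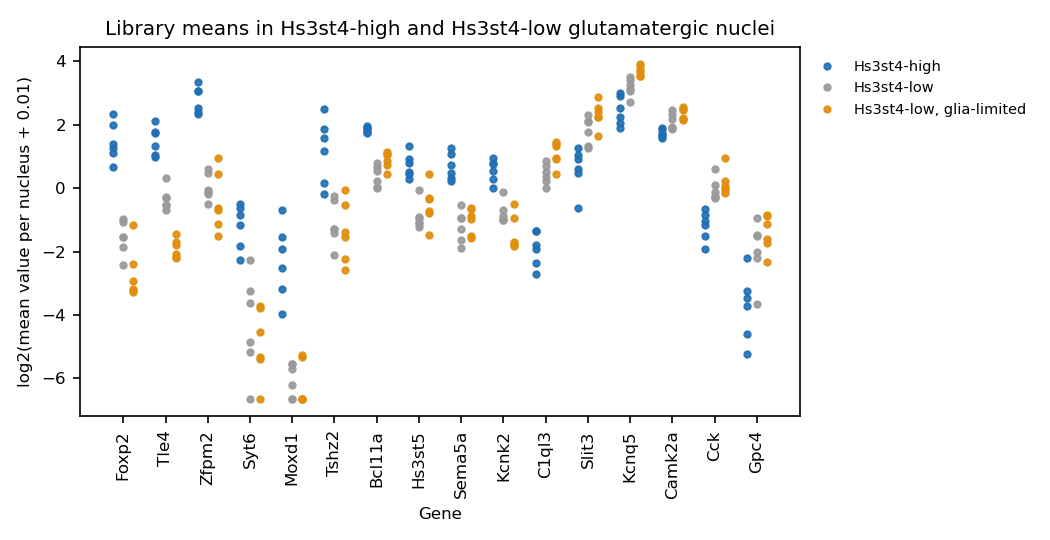
Library means on the scale log2(mean value per nucleus + 0.01) of 16 genes in Hs3st4-high nuclei (blue), Hs3st4-low nuclei (grey) and glia-limited Hs3st4-low nuclei (orange), 6 libraries each; glia-limited Hs3st4-high means are not drawn. Foxp2 and Tle4 of all Hs3st4-high libraries lie above both low sets, and the glia-limited points of Tle4 lie lower than the grey ones and run from 0.21 to 0.36 on the linear scale.

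Of 35 transcription factors of cortical layers, 15 were higher and 3 lower, beside 14.9% and 10.0% of all genes. With size factors 13 were higher and 6 lower, beside 1071 and 1576 of all 12446 genes. When glia-limited 7 were higher and 5 lower, beside 3.25% and 3.97% of all genes. In all 3 fits 6 were higher (Foxp2, Zfpm2, Tshz2, Tle4, Bcl11a and Tshz3) and 2 lower (Zeb2 and Mef2c). The list shares Foxp2, Zfpm2, Tle4 and Tshz2 with the marker lists above. Bcl11a, a zinc finger regulator of deep-layer projection neurons, stood at 3.36, 3.28 and 3.46 in wild-type and 3.69, 3.88 and 3.70 in heterozygous libraries. The heterozygous libraries lay above the wild-type ones without overlap, as for 5.53% of all genes, and no gene was called by genotype. Hs3st4-low nuclei had 1.16, 1.02 and 1.56 and 1.72, 1.00 and 1.43, and the log2 difference was 1.46 ± 0.12 (SE; limma adjusted p = 5.26e-06). When both were glia-limited, the ranges were 3.21 to 3.89 and 1.35 to 2.18 and the log2 difference was 0.95 ± 0.11. By sub-cluster, Bcl11a averaged 0.61 in the claustrum-like one, 1.55 in sub-cluster 5 and 5.60 in the near-projecting-like one. Fezf2, which specifies subcortical projection neurons, and Tbr1, which specifies layer 6, were higher in all nuclei (log2 differences of 1.63 and 0.99) but did not pass when glia-limited (limma adjusted p = 0.0945 and 0.0588). Fezf2 was under 0.05 in Hs3st4-low nuclei.

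Heparan sulfate chains are built by a set of polymerases and sulfotransferases and carried by glypicans and syndecans. Of 30 such genes other than Hs3st4, 11 were higher and 3 lower, with a median log2 difference of 0.11, beside 14.9% higher, 10.0% lower and 0.14 over all genes. With size factors 7 were higher and 3 lower with a median of -0.03, beside 1071 and 1576 of all 12446 genes and a median of 0.01. When glia-limited, 3 of 29 were higher and 3 lower with a median of -0.12, beside 3.25%, 3.97% and -0.02 over all genes. In all 3 fits, Hs3st5, Hs3st2 and Glce were higher and Gpc4 and Gpc6 lower. Hs3st5 and Hs3st2 belong to the same enzyme family as Hs3st4, and Glce converts glucuronic to iduronic acid in the chain. Hs3st5 stood at 1.88, 1.20 and 1.70 in wild-type and 1.39, 1.34 and 2.52 in heterozygous libraries, against 0.52, 0.47 and 0.45 and 0.51, 0.41 and 0.95 in Hs3st4-low nuclei, with no overlap. When both were glia-limited, the ranges were 1.24 to 2.61 and 0.35 to 1.35. Its log2 difference was 1.60 ± 0.10 (SE; limma adjusted p = 1.51e-06). Gpc4, a glypican, averaged 0.0827 ± 0.0670 against 0.286 (SD over 6 libraries), but was higher in Hs3st4-high nuclei in 1 library, and lost its call in 4 of the alternatives. Gpc6 averaged 0.850 ± 0.449 against 2.46. Within the Hs3st4-high nuclei its mean was highest in the near-projecting-like sub-cluster, at 9.96, followed by sub-cluster 5 at 3.20.

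Among planar cell polarity genes, 13 were tested, 4 were higher and 0 lower, with a median log2 difference of 0.32, beside 14.9% higher and a median of 0.14 over all genes. With size factors the median was 0.20, beside 0.01 over all genes. When glia-limited, 3 of 12 were higher and 0 lower, beside 3.25% and 3.97% of all genes. In that fit 4 of 12 were positive and the median was -0.08, beside -0.02 over all genes. Ptk7, a co-receptor of the pathway, Vangl2, a membrane protein of its core, and Prickle1, a cytoplasmic core partner, were higher in all 3 fits. Vangl2 stood at 0.19, 0.21 and 0.23 in wild-type and 0.23, 0.23 and 0.25 in heterozygous libraries, with a log2 difference of 0.81 ± 0.17 (SE; limma adjusted p = 0.0045). Prickle1 averaged 5.25 ± 0.738 against 3.00, and Ptk7 0.331 ± 0.0728 against 0.138 (SD over 6 libraries). By sub-cluster, Ptk7 averaged 0.50 in the corticothalamic-like one and 0.02 in sub-cluster 2. The Celsr genes and Fzd3 did not pass: the log2 difference was 0.37 ± 0.18 for Celsr3, 0.31 ± 0.12 for Celsr2 and 0.11 ± 0.14 for Fzd3 (SE; limma adjusted p = 0.154, 0.0805 and 0.591).

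Of 51 axon guidance genes, 18 were higher and 5 lower with a median log2 difference of 0.34, beside 14.9% higher, 10.0% lower and 0.14 over all genes. With size factors 13 were higher and 7 lower, beside 1071 and 1576 of all 12446 genes. When glia-limited 8 of 49 were higher and 6 lower with a median of -0.01, beside 3.25%, 3.97% and -0.02 over all genes. The semaphorins Sema5a, Sema5b, Sema6a and Sema6d, the semaphorin receptors Nrp1 and Plxna2 and the Slit receptor Robo2 were higher in all 3 fits. Some were split by sub-cluster: Nrp1 averaged 2.46 in the corticothalamic-like one and 0.21 in sub-cluster 2, and Sema6a 0.19 and 3.66. Sema5a stood at 1.39, 1.64 and 1.25 in wild-type and 1.17, 2.36 and 2.08 in heterozygous libraries, and every one of these was above the Hs3st4-low range of 0.26 to 0.68. When both were glia-limited, the ranges were 1.19 to 2.36 and 0.33 to 0.64. The ligands Slit3 and Sema3c and the receptors Plxna4 and Epha4 were lower in all 3 fits. Slit3 averaged 1.64 ± 0.614 against 3.62, with a log2 difference of -1.19 ± 0.12 (SE; limma adjusted p = 3.23e-05), and was lower in 6 of 6 libraries.

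Of 24 glutamate receptor genes, 6 were higher and 5 lower, beside 14.9% and 10.0% of all genes, and 4 each way in all 3 fits. Of the 5 lower, Grin2c was under 0.05 in Hs3st4-high nuclei, so its call is a description. With size factors 4 were higher and 7 lower, beside 1071 and 1576 of all 12446 genes, and when glia-limited 5 of 23 were higher and 6 lower, beside 3.25% and 3.97%. The kainate receptor subunits Grik1, Grik3 and Grik4 and the presynaptic metabotropic receptor Grm8 were higher. Grik2, another kainate subunit, and the metabotropic receptor Grm5 were among those lower. Grik1 varied widely between libraries, at 1.79, 4.67 and 6.08 in wild-type and 2.41, 1.87 and 0.71 in heterozygous libraries, and it averaged 11.9 in sub-cluster 2 and 0.04 in the corticothalamic-like sub-cluster. Its level was lowest in heterozygous replicate 3, which held 0 nuclei of sub-cluster 2. Grik3 was more even between libraries, at 2.51 ± 0.429 against 0.823 (SD over 6 libraries), with a log2 difference of 1.60 ± 0.10 (SE; limma adjusted p = 1.41e-06). It was also split by sub-cluster, with means of 4.79 in the layer 6b-like one, 0.0405 in sub-cluster 2 and 0.0855 in sub-cluster 4.

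Of 42 potassium channel genes and partners, 19 were higher and 1 lower in all nuclei, beside 14.9% and 10.0% of all genes. With size factors 13 were higher and 1 lower, beside 1071 and 1576 of all 12446 genes. When glia-limited, 7 were higher and 6 lower, beside 3.25% and 3.97% of all genes. Of these, Kcnh8 was under 0.05 in glia-limited Hs3st4-low and Kcng3 in glia-limited Hs3st4-high nuclei, so their calls are a description. Those higher in all 3 fits included Kcnh5, Kcnip3, Kcnk2, Kcnh7 and Kcnma1, and Kcnq5 was lower in all 3. Kcnk2, a two-pore leak channel, stood at 1.68, 1.00 and 1.72 in wild-type and 1.92, 1.20 and 1.44 in heterozygous libraries, above the range of 0.49 to 0.91 in Hs3st4-low nuclei. Kcnq5, a subunit of the M-type current, stood at 4.69, 5.72 and 7.96 and at 7.53, 4.15 and 3.66, overlapping the range of 6.58 to 11.3 in Hs3st4-low nuclei, with a log2 difference of -0.74 ± 0.15 (SE; limma adjusted p = 0.00413). When both were glia-limited, the ranges were 3.96 to 8.21 and 11.5 to 15.1 and the log2 difference was -1.23 ± 0.15.

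Of 17 dopamine signalling genes tested, 4 were higher and 7 lower, beside 14.9% and 10.0% of all genes. Of the 7 lower, Drd2 was under 0.05 in Hs3st4-high nuclei, so its call is a description. When glia-limited, 3 of 18 were higher and 0 lower, beside 3.25% and 3.97% of all genes. Prkar2b, a regulatory subunit of protein kinase A, and Adcy1, a calmodulin-stimulated adenylyl cyclase, were higher in all 3 fits, with log2 differences of 0.95 ± 0.12 and 0.80 ± 0.13 (SE). Drd1 averaged 0.183 ± 0.0417 and Drd2 0.0476 ± 0.0291 in Hs3st4-high nuclei (SD over 6 libraries), compared with 0.55 and 1.52 in nuclei rich in medium spiny neuron genes. Of 13 immediate early genes, 2 were higher (Npas4 and Nr4a1) and 1 lower (Bdnf), beside 14.9% and 10.0% of all genes. When glia-limited, 0 were higher and 1 lower, beside 3.25% and 3.97% of all genes. Bdnf, a neurotrophin, was lower in all 3 fits, at 0.241 ± 0.164 against 0.415 (SD over 6 libraries), but lost its call without wild-type replicate 1 and without any 1 of the heterozygous libraries (limma adjusted p from 0.0529 to 0.0912), without the filter on low values (0.0622) and without the library block (0.0873).

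The last comparison asked whether the genotype difference itself differed between Hs3st4-high and Hs3st4-low nuclei. Limma called 0 of 12446 genes for this interaction (0.0%), with 374 at an unadjusted p under 0.05. For Celsr3 the difference of differences was -0.31 ± 0.37 on the log2 scale (SE; limma adjusted p = 0.986), and in Hs3st4-low nuclei Celsr3 stood at 0.120, 0.116 and 0.153 in wild-type and 0.0833, 0.0857 and 0.123 in heterozygous libraries. For Mid1 it was 1.04 ± 0.30 (SE; limma adjusted p = 0.986), but -0.05 in glia-limited nuclei. In those, Mid1 stood at 0.0559, 0.0313 and 0.0272 in wild-type and 0.343, 0.275 and 0.253 in heterozygous Hs3st4-low libraries, so both kinds of nuclei had higher Mid1 values in all 3 heterozygous libraries. The smallest interaction p values belonged to Gnal, Egfr, St6galnac5, Ebf1 and Wdr17, with log2 values of 1.06, 2.22, -0.91, 1.41 and 0.83, and none passed.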

How the data were processed

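The 6 libraries were made with a 10x Genomics 3′ protocol and sequenced together on 1 lane, per the labels' protocols. Cell Ranger, Seurat 4.1 and the builds mm10 and GRCm38 are named, per the submitters' processing notes; how the deposited values were corrected for depth is not given in the sources used here. The table deposited by the authors (24841 genes, 48834 nuclei) was read as a score, a depth-corrected value per gene and nucleus in whole numbers: totals vary between nuclei by a coefficient of variation of 10.7%, and 10.0% of nuclei hold 10 or more low genes (mean below 0.05) at 2 or 3 and none at 1. Depth is therefore unknown, no intervals are given, and no count model was used.

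Library means per nucleus were transformed as log2(mean + 0.01), a scale on which changes of low genes look smaller than they are. Genes with a mean over libraries of at least 0.05 were tested with limma 3.58.1 (trended, R 4.3.3) and adjusted by Benjamini-Hochberg over all genes tested; an adjusted p under 0.05 was called. Libraries were grouped by the genotype in their titles, and p values measure the spread between these libraries. Same-numbered libraries did not deviate together (correlations of -0.12, 0.07 and -0.20, beside -0.10 to 0.22 for libraries with different numbers, highest for wild-type replicate 1 with heterozygous replicate 3 at 0.22 and wild-type replicate 3 with heterozygous replicate 1 at 0.21), so the numbers were not used as pairs. The selected nuclei were clustered with scanpy 1.11.5 (1500 variable genes, 20 components, 15 neighbours, Leiden). Resolutions of 0.3, 0.5 and 0.8 gave 8, 11 and 15 clusters, and 0.3 was chosen after seeing them. Naming a sub-cluster took 3 or more markers with a mean above 0.1 and over 2-fold their mean in the remaining selected nuclei, unless its leading genes went against the name.

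The selected nuclei, gene lists, marker lists and tests were chosen with earlier results of these data known. Named genes were Celsr3, the 5 smallest p values each way by genotype, the 12 largest called differences each way between Hs3st4-high and Hs3st4-low nuclei at a mean of at least 0.2, the leading called members of each list, and the leading genes of each sub-cluster; others were chosen after their values were seen. Some genes that this rule or a list takes in are not reported here by name. The fits were tested on simulated data. Coordinates are from GENCODE M21 (GRCm38). Counting by strand is not given in the sources used here, so overlapping genes cannot be told apart.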

Additional observations from a re-analysis of the deposited data

How the results depend on the processing

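The genotype comparison of Hs3st4-high nuclei and the interaction called 0 genes in limma with pseudocount 0.1, no filter, size factors, Hs3st4 at least 8, glia-limited nuclei and each library left out in turn, and the interaction also with Hs3st4-low at most 4. Pseudocount 0.001, array weights, Hs3st4 at least 3 and Rgs9 plus Pde10a at most 2 were run for the genotype comparison alone, with 0 called. With the replicate block, 0 genes were called (312 at an unadjusted p under 0.05) and Celsr3 stood at -0.70 (limma adjusted p = 0.999). Celsr3 stayed negative, from -0.45 to -1.64 under all alternatives run. The count of genes called between Hs3st4-high and Hs3st4-low nuclei, 3106, fell to 902 in glia-limited nuclei and was 2647 with size factors. In glia-limited nuclei Adcy5 turned to 0.0134 and Npas4 to -0.129, and the interaction of Celsr3 turned to 0.0192 and that of Mid1 to -0.0548; the cause was not tested. With 1 library left out, the genotype difference in the share of all nuclei ran from -0.294 to 1.67 percentage points. Equal weights for sub-clusters could not be run in 6 libraries, since 0 sub-clusters had 10 nuclei in each; with 3 sub-clusters in 5 libraries, 0 genes were called (589 at an unadjusted p under 0.05). The glia-limited, sub-cluster and equal-weight alternatives were chosen after seeing the data. Limits are the 39 and 61 nuclei of 2 libraries, the unknown depth and the uneven mix of sub-clusters.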
